A study of Mus musculus with 2 samples.

Results

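Secretory granules give neutrophils much of their antimicrobial content, and 10 genes of the later granules and of the maturing neutrophil were followed here at the level of single cells: Camp, Ngp, Ltf, Lcn2, Chil3, Mmp8, Mmp9, Padi4, Pglyrp1 and Ly6g. They were taken by symbol from the gene list that both deposited matrices share, where they are 10 of 32285 genes, and each symbol matched 1 gene in each matrix. The rule itself uses no measured value, but the genes were chosen with earlier results of these data known. All 10 had counts in both libraries. Cells came from mice bearing liver metastases of 4T1, a mouse mammary carcinoma line, after hepatic arterial infusion of CBL0137, a curaxin that traps a histone chaperone in chromatin, or of its vehicle. Cells were run as 2 droplet libraries, 1 labelled liver and 1 labelled spleen, and in each library hashtag antibodies told 3 groups apart.

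Hashtag A0301 marked the vehicle, A0305 a low dose of CBL0137 and A0310 a high dose. The animals of all groups were female mice of the strain BALB/cAnNCrl at an age of 7 to 8 weeks, with 4T1 cells injected into the spleen followed by removal of the injected part, and cells were collected 5 days after treatment. Each group was a pool of 2 mice in each library, so that a group is 1 sample, no spread between animals can be given and no test was run. The intervals below are at 95% and cover counting error only. What amount each dose was is not given here. The sample labels describe leukocytes from a density gradient and the study's methods describe beads for CD11b+ cells, and T and B cell-like cells were present in both libraries.

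Granules form in succession while a neutrophil precursor matures in the marrow. Primary granules with myeloperoxidase and serine proteases are filled at the promyelocyte stage, secondary granules with lactoferrin and cathelicidin at the following stages, and tertiary granules with gelatinase later still, so that a granule is known largely by the genes that are active while it forms. The transcription factor C/EBP epsilon is needed for secondary granules. Mice with tumors often release immature neutrophils, and cells at many stages are then found outside the marrow.

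Camp (chr9:109847379-109849617, minus strand, GRCm38) encodes the cathelicidin antimicrobial peptide, Ngp (chr9:110419747-110423012, plus strand) a cystatin-related granule protein, and Ltf (chr9:111019271-111042767, plus strand) the iron-binding protein lactoferrin. These 3 protein-coding genes lie within 1195 kb of one another. Lcn2 (chr2:32384633-32388252, minus strand) encodes a lipocalin that binds bacterial siderophores, and Chil3 (chr3:106147554-106167564, minus strand) a chitinase-like lectin. Pglyrp1 (chr7:18871331-18890459, plus strand) encodes a protein that recognizes peptidoglycan. Mmp8 (chr9:7558456-7568485, plus strand) and Mmp9 (chr2:164940780-164955850, plus strand) encode the neutrophil collagenase and gelatinase B. Padi4 (chr4:140745865-140774236, minus strand) and Ly6g (chr15:75155240-75159126, plus strand) are not granule genes in the strict sense: the former encodes a nuclear enzyme that turns arginine of histones into citrulline, and the latter a surface protein that marks mouse neutrophils.

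The 250 bases before the RefSeq start site are shown for Camp, Ngp and Ltf, which were largely detected in the same cells, and for Mmp8, which took the last place in the order given further on. Sequences are from the RefSeq promoter table for GRCm38.p6, which held 9 of the 10 genes (Mmp9 is the exception), and each is written 5′ to 3′ on the gene's strand. Capitals mark matches to TTGCNNAA, a core of C/EBP sites, or to AGGAAG, a core of sites for ETS factors such as PU.1, on either strand. Camp is read from chr9:109849457-109849706, Ngp from chr9:110419558-110419807, Ltf from chr9:111019042-111019291 and Mmp8 from chr9:7558179-7558428.
Camp: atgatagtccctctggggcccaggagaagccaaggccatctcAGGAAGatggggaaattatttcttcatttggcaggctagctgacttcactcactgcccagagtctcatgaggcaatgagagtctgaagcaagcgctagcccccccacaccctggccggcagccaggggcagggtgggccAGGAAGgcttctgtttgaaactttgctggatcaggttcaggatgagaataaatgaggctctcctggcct
Ngp: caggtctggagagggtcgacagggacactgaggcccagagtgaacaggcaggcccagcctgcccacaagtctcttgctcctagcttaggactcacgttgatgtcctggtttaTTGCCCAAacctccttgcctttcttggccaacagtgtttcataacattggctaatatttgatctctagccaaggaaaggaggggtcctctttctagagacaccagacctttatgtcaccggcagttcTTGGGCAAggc
Ltf: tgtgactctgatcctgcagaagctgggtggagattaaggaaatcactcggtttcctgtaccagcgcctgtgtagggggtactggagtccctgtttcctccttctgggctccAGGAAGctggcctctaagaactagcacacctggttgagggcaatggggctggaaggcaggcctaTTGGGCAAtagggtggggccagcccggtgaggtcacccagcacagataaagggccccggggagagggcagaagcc
Mmp8: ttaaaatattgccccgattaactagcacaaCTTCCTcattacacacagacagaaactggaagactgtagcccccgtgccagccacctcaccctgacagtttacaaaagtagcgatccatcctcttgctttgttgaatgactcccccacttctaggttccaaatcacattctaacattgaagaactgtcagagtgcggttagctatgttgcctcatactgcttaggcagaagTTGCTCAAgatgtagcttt

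TTGCNNAA was found in the 250 bases of 5 of the 9 genes (Lcn2, Mmp8, Ngp, Ltf and, before 1 of its 2 start sites, Ly6g) and in 9.56% of 32851 promoters of the same length. AGGAAG was found for 8 of the 9 genes, all but Ngp, and in 29.5% of all promoters. No match of one motif overlapped a match of the other. Ngp had 2 TTGCNNAA matches, starting 138 and 11 bases before the start site, Ltf had 1 at 75 bases and Mmp8 had 1 at 19 bases, while Camp had none and 2 AGGAAG matches. A match to these letters is a description of the sequence and no evidence of binding.

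The liver-labelled library held 9591 barcodes, of which 8435 carried a single hashtag, and the spleen-labelled library held 4830 with 2988. Of the 1627 barcodes without a hashtag call in the spleen-labelled library, 1532 had the high dose hashtag as the most abundant one. The high dose group there may thus be the least completely assigned, but whether these barcodes are high dose cells was not tested. Transcripts of liver cells were found in the spleen-labelled library: Clec4f, of Kupffer cells, was at 124.5 CPM (UMIs per 1000000 UMIs, where a UMI, a unique molecular identifier, stands for 1 captured transcript) there and at 0 in the liver-labelled library, and Alb at 19.4 and 0. Clusters of 249 endothelial-like, 162 hepatocyte-like and 74 4T1 tumor cell-like cells were named in the spleen-labelled library. None of these classes was named in the liver-labelled library. The names of the deposited matrices state the opposite tissue for each library. The tissue behind each label is therefore uncertain, and the libraries are called by their labels. The libraries share 15 barcodes, 6 of them among assigned cells. Neutrophil-lineage cells were those of clusters called neutrophil-like or granulocyte progenitor-like by marker genes that include none of the 10 genes, after clustering without them. Cluster 15 of the liver-labelled library (203 cells) had neither name and entered the lineage with both marker lists taken as one. Lineage cells numbered 1536 for the vehicle, 1385 for the low and 240 for the high dose in the liver-labelled library, and 395, 671 and 164 in the spleen-labelled library. The groups' summed counts in these cells ranged from 2684499 to 15490100.

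The 10 genes were largely transcripts of the neutrophil lineage, with some of them shared by other cells. UMIs were summed over the cells of a class before CPM were taken. Over all groups, the lineage held 51.6% of the UMIs of the liver-labelled library but from 86.6% (Chil3) to 99.2% (Ngp) of those of each of the 10 genes. The lineage of the spleen-labelled library held 46.8% of all UMIs, and its share ranged from 63.6% (Padi4) to 98.4% (Camp). The 10 genes together made up 5.14% and 3.33% of the lineage's UMIs. T cell-like cells, which should lack the granule transcripts such as Camp, Ngp and Ltf, gave a level of free RNA for them: Camp was at 27.7 CPM there against 9643 CPM in the lineage of the liver-labelled library, and at 8.08 against 5857 in the spleen-labelled library. Pglyrp1 is an exception, at 189 CPM in T cell-like cells of the spleen-labelled library, 9.24% of its level in the lineage, where the other 9 genes were at 3.42% or less.

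Monocyte-like cells carried Chil3 at 869 and 1050.4 CPM (liver- and spleen-labelled library), Lcn2 at 1049.7 and 786, and Mmp8 at 324 and 368, above the T cell-like levels of 3.54 and 14.8 CPM (Chil3), 37.5 and 74.5 CPM (Lcn2) and 2.52 and 16.6 CPM (Mmp8). Camp was at 359 CPM in the former and 12.3 in the latter, where it lies near the free RNA level. Macrophage-like cells of the spleen-labelled library held Mmp9 at 225 CPM in 288 cells, with 293 in vehicle cells, 152 at the low dose and 250.2 at the high dose. Their Chil3 level was 28.0 CPM in 56 vehicle cells, 403 in 110 low dose cells and 306 in 122 high dose cells, and their Lcn2 level 25.3, 273 and 218 CPM. Both macrophage-like clusters entered these sums, and the Clec4f and Marco cluster held 6, 25 and 39 cells of the 3 groups. Pglyrp1 was also found in lymphocytes. It was at 296 CPM in the 157 NK cell-like cells of the liver-labelled library against 35.5 CPM in its T cell-like and 82.6 CPM in its B cell-like cells. Padi4, at 0 UMIs in T cell-like cells of the spleen-labelled library, was at 101 CPM in the 74 4T1 tumor cell-like cells, where Mmp9 was at 113 CPM and Lcn2 at 321 CPM, and where Camp was at 6.04 CPM. Padi4 in the lineage of that library was at 42.6 CPM.

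Along neutrophil maturation the genes followed a similar order in both libraries, from Camp, Ngp, Ltf and Chil3 through Lcn2, Ly6g, Padi4 and Pglyrp1 to Mmp9 and Mmp8. Vehicle lineage cells were ranked by an index built from 12 early and 8 late genes that include none of the 10, and cut into 10 equal bins from the least to the most mature. A gene's position is the mean percentile of the cells, weighted by its level in each bin, and its error is the counting error. It depends on how long a gene stays on as well as on where its level is highest. Camp stood first, at a position of 10.9 (10.8 to 10.9) in the liver-labelled library and 30.1 (29.9 to 30.2) in the spleen-labelled library. Mmp8 stood last, at 50.4 (49.8 to 50.9) and 66.2 (65.2 to 67.2). Positions in the spleen-labelled library were later by up to 24.5 percentile units. It holds a cluster of 159 progenitor-like cells with Mpo, Ctsg and Cd34 in which Camp was at 28.8 CPM, and 65 of its 395 vehicle cells were in that cluster. The rank correlation of the positions between libraries was 0.903 (Spearman's rho over the 10 genes, given as a description).

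Camp, Ngp and Ltf were early and were then nearly lost. In the liver-labelled library Camp was at 18763 CPM in bin 1, 15791 in bin 2, 1574 in bin 3, 82.1 (67.6 to 98.9) in bin 4 and 119.6 (97.7 to 145) in bin 5, and between 41.8 and 63.8 CPM in bins 6 to 10, against 27.7 CPM in T cell-like cells. Ngp went from 34635.5 CPM in bin 1 to 9804 in bin 3, 1600.1 in bin 4 and 60.4 in bin 10. Ltf was at 5138 CPM in bin 1, highest in bin 2 with 6773 CPM, and at 136 in bin 4. All 3 genes were thus near their lowest levels from bin 6 onward. All 3 were highest in bin 4 of the spleen-labelled library, with Camp at 22227, Ngp at 32706 and Ltf at 7212 CPM. Its first bin, where the primary granule genes summed to 29448 CPM, held Camp at 1169, Ngp at 4042 and Ltf at 47.7 CPM. Between bins 1 and 4 Camp was 19.0-fold, Ngp 8.09-fold and Ltf 151-fold apart. Chil3 was highest in the same bins, 1 (1201 CPM) and 4 (1327 CPM), and its position was within counting error of that of Ltf in the spleen-labelled library (a difference of 1.06, -0.35 to 2.47).

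Lcn2 and Pglyrp1 were high in the same cells as Camp but stayed on. Lcn2 was at 16109.6 CPM (bin 1), 17656 (bin 2) and 1151 CPM (bin 10) in the liver-labelled library, 15.3-fold lower in the last bin than at its highest, where Camp was 448-fold lower. Pglyrp1 went from 4681 CPM in bin 2 to 1357 in bin 10, which is 3.45-fold lower. Lcn2 and Ly6g did not differ in position beyond counting error in the liver-labelled library (0.25, -0.42 to 0.92). Ly6g, the surface marker, was at 279.9 CPM in bin 1, at 1079.8 in bin 3 and at 34.9 in bin 10. Padi4 was at 42.3, 168 and 9.30 CPM in those bins, the last from 4 UMIs. Neither Pglyrp1 and Padi4 (1.15, -1.41 to 3.70) nor Padi4 and Ly6g (2.37, -0.33 to 5.07) differed in position beyond counting error in the spleen-labelled library.

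The metalloproteinase genes took the last positions and stayed. Mmp8 was at 66.8 CPM in bin 1, at 1939.7 in bin 4 and at 544 in bin 10 of the liver-labelled library, and at 5.72, 187 (bin 4), 2132 (bin 7) and 978 CPM in the spleen-labelled library. Mmp9 was at 123 CPM in bin 1, at 776 in bin 3 and at 346 in bin 10, and in the spleen-labelled library at 0.953, 1228 (bin 6) and 439 CPM. Its highest bin was that of Padi4 in both libraries. In bin 4 of the liver-labelled library Mmp8 was thus 29.0-fold above its first bin, in cells where Camp was at 82.1 CPM against 18763 in its first bin. The difference between the positions of Mmp9 and Ltf was 34.2 percentile units (33.2 to 35.1) in the liver-labelled library and 28.4 (27.0 to 29.7) in the spleen-labelled library. Mmp9 ranked 9 and Mmp8 ranked 10 in all 13 settings tried in both libraries, while Camp ranked from 1 to 3 in the spleen-labelled library. Depth moved with the index, with a median of 30427 UMIs per cell in bin 1 and 2699 in bin 10 of the liver-labelled library, and its part in the order was not tested.

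**Figure D1:**
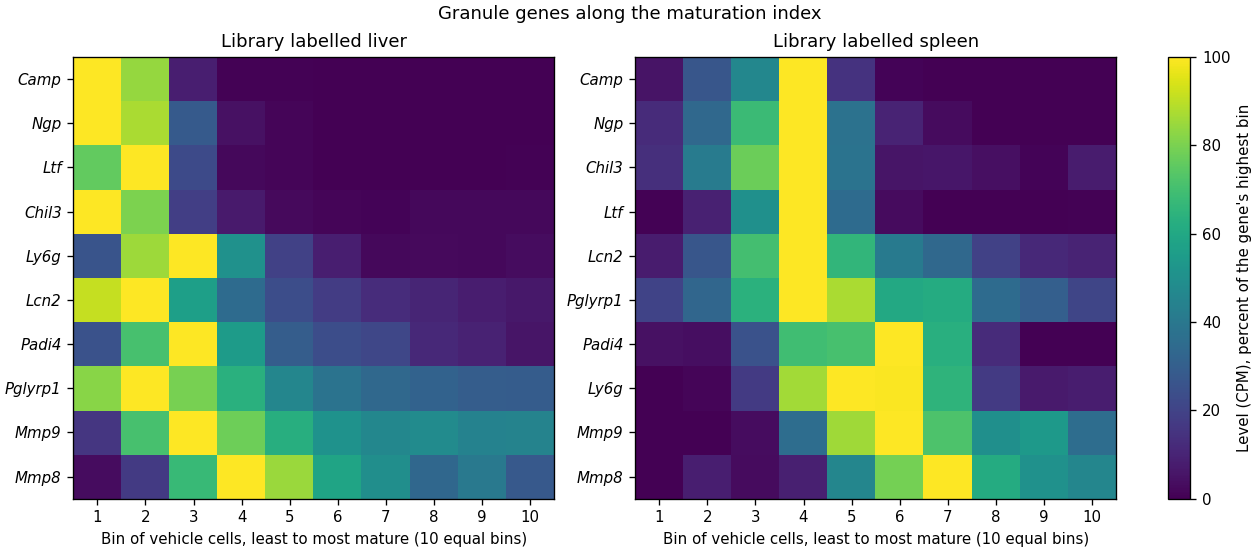
Levels of the 10 genes in 10 bins of vehicle neutrophil-lineage cells (x axis, least to most mature), each gene as a percent of its highest bin (color) and genes sorted by position within a library. Camp, Ngp and Ltf fill the first 2 bins of the liver-labelled library and peak in bin 4 of the spleen-labelled library, and Mmp8 peaks in bins 4 and 7.

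Nearly all cells with a Camp UMI also held one of Ngp, while part of the cells with an Ngp UMI held none of Camp. Each vehicle lineage cell was thinned to 500 UMIs, so that depth was equal, and no cell was lost by this. Camp was found in 39.5% and 44.3% of these cells before thinning and in 24.3% and 27.6% after it. Ngp was at the higher level, at 19781.5 against 9939.7 CPM in the liver-labelled and 12698 against 6406 CPM in the spleen-labelled library. The part of level in the shares below was not tested. Of the 373 cells with a Camp UMI in the liver-labelled library, 92.0% (88.7 to 94.5) had an Ngp UMI, against 15.1% (13.1 to 17.3) of the 1163 cells without one. In the spleen-labelled library the shares were 97.2% (92.2 to 99.4) of 109 cells and 20.3% (15.8 to 25.4) of the others. Conversely, Camp was found in 66.1% (61.8 to 70.2) of the 519 cells with Ngp in the former library and 64.6% (56.8 to 71.9) of the 164 in the latter. Ltf was found in 73.2% and 73.4% of cells with Camp, and in 4.30% and 4.90% of cells without it. Mmp8 went the other way: it was found in 16.4% (12.7 to 20.5) of cells with Camp and 35.5% (32.8 to 38.3) of cells without it in the liver-labelled library, and in 10.1% (5.15 to 17.3) and 34.3% (28.8 to 40.1) in the spleen-labelled library.

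Pearson's r over cells, a description in which the cells of a library share 1 preparation, was 0.867 for Camp and Ngp in 1536 cells of the liver-labelled library and 0.861 in 395 cells of the spleen-labelled library. It was 0.788 and 0.762 for Camp and Ltf, 0.726 and 0.725 for Ngp and Lcn2, and -0.21 and -0.26 for Camp and Mmp8. The early 3 genes and Lcn2 thus formed 1 block in both libraries. Mmp8 and Mmp9, neighbors in the order, had r of 0.0675 and 0.291, and cells with Mmp8 held Mmp9 in 20.9% and 40.4% against 16.9% and 13.6% of those without. Padi4 gave r between 0.013 and 0.13 with every other gene, from 39 and 11 cells with a UMI, which is too sparse to read.

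**Figure D2:**
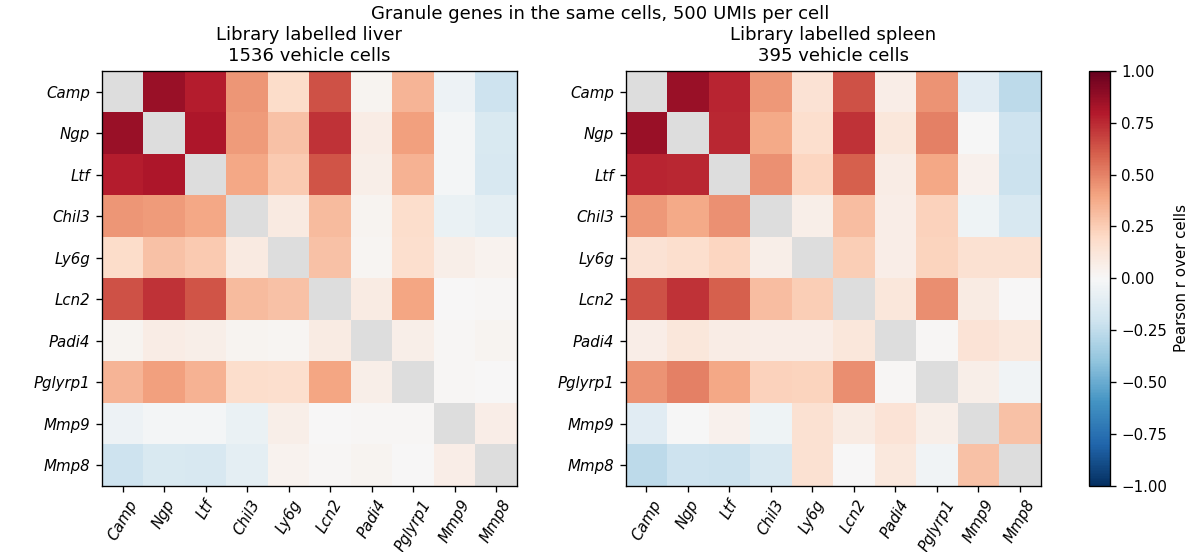
Pearson's r over vehicle neutrophil-lineage cells for each pair of the 10 genes (color), after thinning to 500 UMIs per cell, in the order of the liver-labelled library. Camp, Ngp, Ltf and Lcn2 form a block with r from 0.60 to 0.87 in both libraries, and Mmp8 is negative with Camp, Ngp and Ltf.

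At the high dose few or no assigned lineage cells lay at the mature end of the index, where Camp, Ngp and Ltf are at their lowest. Bins were cut at the vehicle deciles, so that each holds 10% of vehicle cells. In the liver-labelled library 238 of 240 high dose lineage cells (99.2%, 97.0 to 99.9) lay in bins 1 to 4, against 614 (39.97%, 37.5 to 42.5) of 1536 vehicle and 50.5% (47.9 to 53.2) of 1385 low dose cells, and none lay in bins 8 to 10, which allows up to 1.53%. Bins 8 to 10 of the spleen-labelled library held 1 of 164 high dose cells (0.61%, 0.015 to 3.35), 30.1% (25.6 to 34.9) of vehicle and 32.5% (29.0 to 36.2) of low dose cells. Bins 1 to 4 held 47.0% (39.1 to 54.9) of its high dose, 40% (35.1 to 45.0) of its vehicle and 27.0% (23.6 to 30.5) of its low dose cells. Lineage cells were 49.5%, 43.4% and 11.2% of all assigned cells (vehicle, low, high) in the liver-labelled library, and 48.1%, 51.6% and 19.0% in the spleen-labelled library. Whether late cells were fewer or early cells more numerous per mouse cannot be told apart from shares. In the spleen-labelled library 865 cells were assigned to the high dose. A further 1532 barcodes there had its hashtag as the most abundant one but no hashtag call. They are not in these shares, and their place on the index was not tested.

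**Figure D3:**
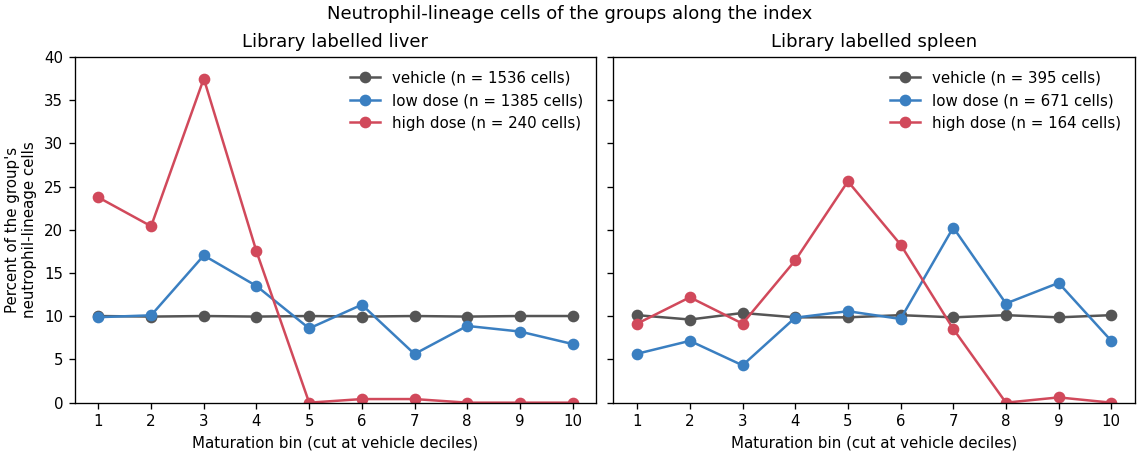
Percent of each group's neutrophil-lineage cells (y axis) in the 10 maturation bins (x axis, cut at the deciles of the vehicle cells), 1 pooled sample per line. The high dose line is at or near 0 in bins 5 to 10 of the liver-labelled library and in bins 8 to 10 of the spleen-labelled library. Barcodes without a hashtag call are not included.

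The share of cells with the early transcripts was highest at the high dose in both libraries. After thinning to 500 UMIs, Camp was found in 24.3% (vehicle), 26.4% (low dose) and 48.3% (high dose) of the lineage cells in the liver-labelled library (39.5%, 44.9% and 82.5% before thinning), and in 27.6%, 21.3% and 46.3% in the spleen-labelled library (44.3%, 33.1% and 75.0% before). T cell-like cells had 1.69%, 2.44% and 1.67% in the former (13.03%, 12.6% and 13.6% before) and 0% of 43, 104 and 169 cells in the latter (4.65%, 5.77% and 5.92% before). Ngp was found in 33.8%, 40.4% and 85.8% of lineage cells in the liver-labelled library (51.4%, 61.7% and 97.9% before), with 2.20%, 2.55% and 1.67% of T cell-like cells. In the spleen-labelled library Ngp was found in 41.5%, 38.6% and 76.8% (58.0%, 57.2% and 94.5% before), with 0%, 2.88% and 0.59% of T cell-like cells. Mmp8, the latest gene, differed less, with 30.9%, 27.9% and 32.9% in the liver-labelled library and 27.6%, 33.7% and 29.9% in the spleen-labelled library (69.7%, 67.8% and 80.4%, and 59.7%, 67.1% and 58.5%, before thinning). T cell-like cells had Mmp8 in 0%, 0% and 0.20%, and in 2.33%, 2.88% and 0%. Median depth was 4842, 6284 and 20816 UMIs per lineage cell and 4795, 4679 and 5041 per T cell-like cell in the liver-labelled library, and 8074, 5146 and 15455 against 3580, 4133 and 5133 in the spleen-labelled library.

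Summed over the lineage, no gene of the 10 was changed 2-fold at the high dose in either library. Of all genes with at least 50 UMIs, 0.754% were at least 2-fold higher and 7.14% at least 2-fold lower in the liver-labelled library, and 1.02% and 8.2% in the spleen-labelled library, where 0 of the 10 were either. Their median log2 ratio was 0.25 and 0.60, and that of all genes tested -0.14 and -0.28. With the lineage rule by S100a8 and S100a9 the medians of the 10 were 0.21 and 0.22, and those of all genes -0.085 and 0.032. With neutrophil-like clusters alone they were 0.32 and 0.28 against -0.34 and -0.029. Cluster 9 of the spleen-labelled library, progenitor-like with Camp at 28.8 CPM, held 16.5% of vehicle and 8.54% of high dose lineage cells there. Its part in the ratios was not tested. Among the earlier genes, Camp was at 9939.7 CPM (vehicle) and 7623 CPM (high dose) in the liver-labelled library, a log2 ratio of -0.38 (-0.40 to -0.37). It was at 6406 and 7064 CPM in the spleen-labelled library, a ratio of 0.14 (0.11 to 0.17). The directions differ between the libraries, and this difference was not tested. Ngp was at 19781.5 and 19180.3 CPM (-0.045, -0.054 to -0.035) and at 12698 and 17090.0 CPM (0.43, 0.41 to 0.45). Ltf was at 3482 and 3509.8 CPM, a ratio of 0.012 whose interval spans 0 and whose sign changed under 3 of 13 alternatives, and at 1972 and 3077 CPM (0.64, 0.60 to 0.69). Lcn2 was higher at the high dose in both libraries, at 11868 and 14449 CPM (0.28, 0.27 to 0.30) and at 7729.98 and 12420.2 CPM (0.68, 0.66 to 0.71). Chil3 was at 655 and 1068 CPM (0.71, 0.66 to 0.75) and at 564 and 782 CPM (0.47, 0.39 to 0.56).

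Of the later genes, Pglyrp1 was at 3500.0 and 4141 CPM (0.24, 0.22 to 0.26) and at 1858 and 2759 CPM (0.57, 0.52 to 0.62). Mmp9 was at 422 and 507 CPM (0.27, 0.20 to 0.33) and at 316 and 516 CPM (0.71, 0.60 to 0.82). The interval of Mmp8 in the liver-labelled library (686 and 706 CPM) spans 0, and in the spleen-labelled library it was at 429 and 545 CPM (0.34, 0.24 to 0.44). Ly6g was higher at the high dose by 0.27 (0.21 to 0.32) and 0.78 (0.67 to 0.89), and Padi4 by 0.29 (0.15 to 0.44) and 0.62 (0.30 to 0.94), the latter from 171 and 158 UMIs. These sums weight a cell by its depth. Averaging the CPM of single cells instead gave larger ratios in the liver-labelled library and turned the sign of Camp (0.59) and Ngp (0.99), and 4 of the 10 genes then passed 2-fold there, as did 5.19% of all genes tested on that scale: Lcn2 (1.09), Chil3 (1.69), Padi4 (1.05) and Ly6g (1.25). In the spleen-labelled library that mean turned Mmp8 to -0.067, the lineage rule by S100a8 and S100a9 turned Camp to -0.27, and neutrophil-like clusters without progenitor-like ones turned Camp to -0.54 and Chil3 to -0.13. Over the 14 alternatives there, Ngp ranged from 0.020 to 0.73, Ltf from 0.24 to 0.99, Lcn2 from 0.27 to 0.86 and Ly6g from 0.41 to 0.97.

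**Figure D4:**
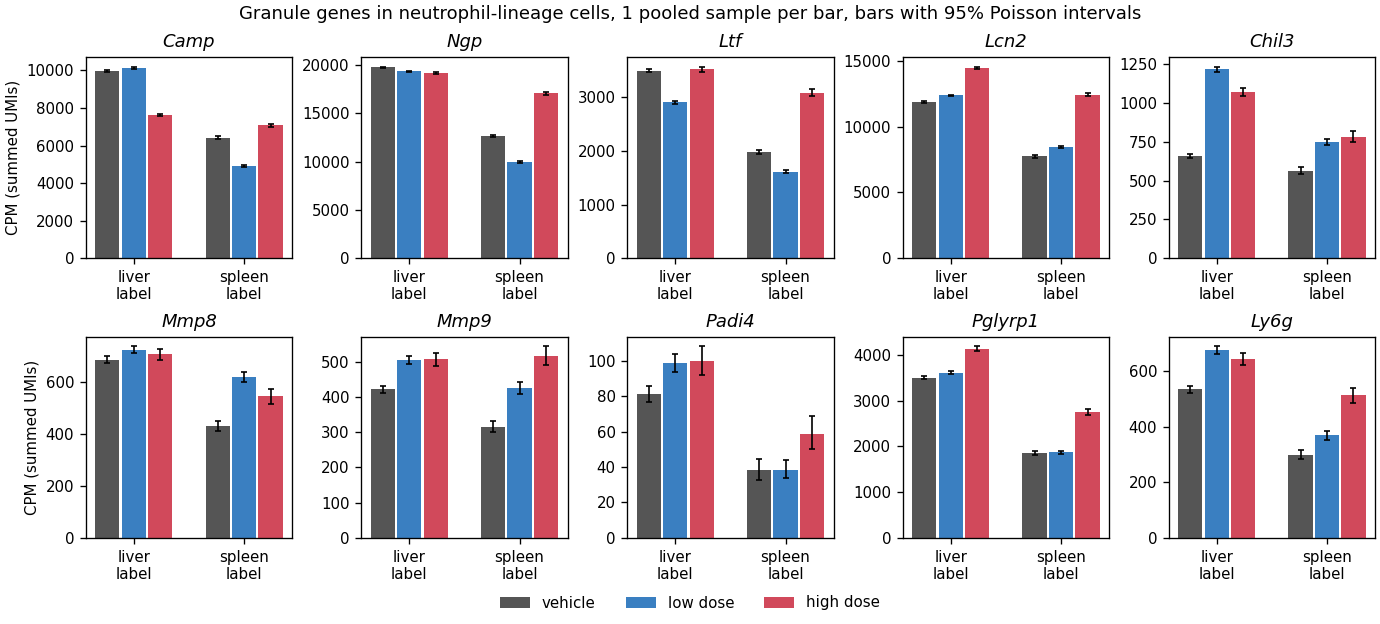
Level in neutrophil-lineage cells (y axis, CPM of summed UMIs) of the 10 genes in the 3 groups (color) of each library (x axis), 1 pooled sample per bar with the exact Poisson interval. The scale differs between panels. Camp and, by far less, Ngp have a high dose bar below the vehicle bar in the liver-labelled library and above it in the spleen-labelled library, and Chil3 is above the vehicle at both doses in both libraries.

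At matched positions of the index the high dose ratios of all 10 genes were lower in both libraries than over all lineage cells. Levels were averaged over the bins that held at least 5 cells of both groups, 4 bins for the liver-labelled library and 7 for the spleen-labelled library, with equal makeup of both groups. The 2 measures thus also differ in how cells are weighted and in the bins included, and the part of matching was not tested. Again 0 of the 10 genes reached 2-fold, and the share of all genes past it within bins is not given here. In the liver-labelled library Camp was at 5919 CPM after the high dose and 9056 after the vehicle, a log2 ratio of -0.61 (-0.63 to -0.60), and it was lower in each of the 4 bins, by -0.42, -0.84, -0.996 and -0.72. Ngp (-0.27, -0.28 to -0.26) and Ltf (-0.19, -0.22 to -0.17) were lower as well over the 4 bins, but only in bins 1 to 3, and in bin 4 they were higher than after the vehicle by 0.60 and 1.49. Chil3 was higher (0.54, 0.49 to 0.59), and was so in each of the 4 bins. The intervals of Padi4 (0.089, -0.075 to 0.25), Ly6g (0.061, -0.003 to 0.12) and Mmp8 (0.028, -0.036 to 0.091) span 0. In the spleen-labelled library Camp was at -0.039 (-0.066 to -0.012), an average over bins of opposite direction. It was higher in bins 1 to 3, by 0.36, 0.99 and 0.23, and lower in bins 4 and 5, by -0.59 and -0.87. In bins 6 and 7, taken without cluster 12 (described further on), its intervals span 0. Over the 7 bins of that library Ngp (0.27), Ltf (0.35), Lcn2 (0.44), Chil3 (0.42) and Pglyrp1 (0.28) were higher. The averages of Chil3, Ngp, Mmp8, Mmp9, Ly6g and Padi4 also cover bins of opposite direction. Chil3 was higher in bins 1 to 3, by 0.97, 0.86 and 0.86, and lower in bin 4 by -0.45 (-0.62 to -0.28). Its interval spans 0 in bin 5, and without cluster 12 it was higher in bin 6 (2.20). Ngp was higher in bins 1 to 3 and lower in bins 4 and 5, by -0.054 and -0.13, and without cluster 12 it was higher in bin 6 (0.50). Mmp8 was lower in bins 2 and 3, by -3.42 and -4.36, and higher in bin 5 by 0.35 (0.18 to 0.52). Ly6g was lower in bin 4 by -0.48 (-0.70 to -0.26) and higher in bin 5 by 0.27, and Padi4 was at -0.84 and 0.85 in those bins. Mmp9 was lower in bin 3 (-1.48) and, without cluster 12, higher in bin 7 (0.38). Mmp9 there went from 0.71 over all lineage cells to 0.16 (0.025 to 0.29) within bins, Ly6g from 0.78 to 0.14 (0.015 to 0.27), and Mmp8 from 0.34 to -0.16 (-0.29 to -0.040), while Padi4 was at -0.029 with an interval that spans 0 (-0.40 to 0.35). Single clusters of that library did not all share these directions. In cluster 2, with 70 cells of each group, Camp (-1.59, -1.66 to -1.51), Chil3 (-0.72, -0.94 to -0.51), Ngp (-0.55, -0.59 to -0.51) and Ltf (-0.29, -0.38 to -0.21) were lower at the high dose. In cluster 7, with 45 high dose and 67 vehicle cells, Chil3 was at 0.37 (0.26 to 0.47), Ltf at 0.13 (0.071 to 0.19) and Ngp at -0.037 (-0.059 to -0.015). Camp was lower at the high dose in cluster 7 (13605 against 15180 CPM) and in cluster 11 (8941 against 9791). It was higher, at low levels, in cluster 9 (69.3 against 26.1 CPM) and cluster 0 (173 against 34.9). Cluster 9 held 14 high dose and 65 vehicle cells, and the part of this makeup in bins 1 to 3 was not tested.

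**Figure D5:**
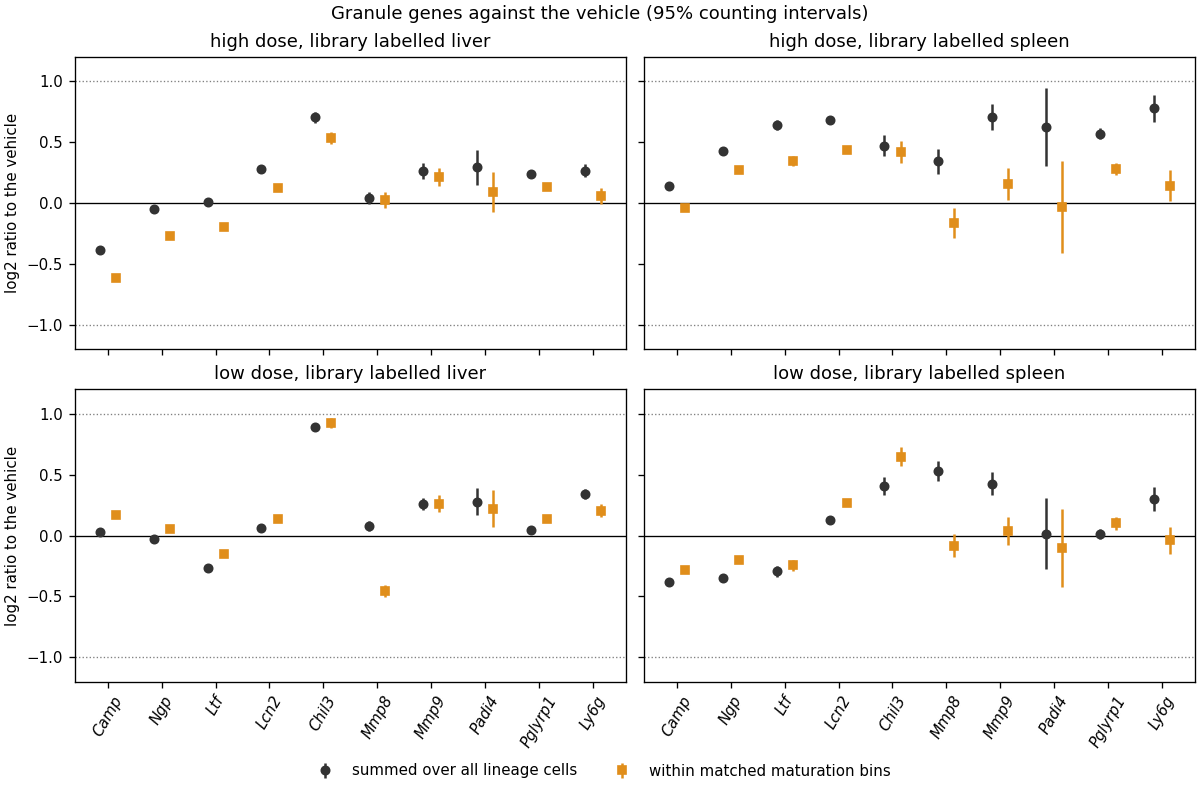
Log2 ratio of the high dose (top) and the low dose (bottom) to the vehicle (y axis) for the 10 genes in each library, summed over all lineage cells (dark circles) and within matched maturation bins (orange squares), with 95% counting intervals. Dotted lines mark 2-fold. At the high dose each square lies below its circle, and Chil3 is above 0 in all 4 panels. Circles weight cells by depth, and squares weight the bins used by the vehicle makeup.

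At the low dose no gene of the 10 reached 2-fold, and Chil3 was higher than in the vehicle in both libraries. Of all genes tested, 0.2% were at least 2-fold higher and 0.746% lower in the liver-labelled library, 1.02% and 0.409% in the spleen-labelled library, and 0 of the 10 were either. Chil3 was at 1213 CPM against 655 in the liver-labelled library (log2 ratio 0.89, 0.85 to 0.93) and at 747 against 564 in the spleen-labelled library (0.41, 0.34 to 0.48), and within bins at 0.93 (0.88 to 0.97) and 0.65 (0.57 to 0.73). Single bins of the spleen-labelled library differed: Chil3 was lower in bin 2 by -0.70 (-0.89 to -0.50) and higher in bins 3 and 4 by 0.51 and 0.77. Monocyte-like cells held Chil3 at 658, 1274 and 719 CPM (vehicle, then low, then high dose) in the liver-labelled library and at 1008, 1283 and 748 in the spleen-labelled library. The vehicle cells are shared by both dose comparisons. Camp (0.029, 0.019 to 0.039) and Ngp (-0.031, which a mean over cells turned to 0.20) were close to the vehicle in the liver-labelled library and lower in the spleen-labelled library, with ratios of -0.38 (-0.40 to -0.36) and -0.35 (-0.37 to -0.33). Ltf was lower in both, at -0.26 (-0.28 to -0.25) and -0.29 (-0.34 to -0.25). Mmp8 was at 0.079 and 0.53 summed over all lineage cells, and at -0.45 (-0.51 to -0.40) and -0.085 (-0.18 to 0.010) within bins. As a mean over cells without matching it was at -0.13 and 0.40. Its direction in the liver-labelled library thus also depended on how cells were weighted, and the part of matching was not tested. Much of the 0.53 came with cluster 12 of the spleen-labelled library, described further on, which held 1376 of the 3762 low dose UMIs of Mmp8: without it, Mmp8 was at 0.0084 (-0.079 to 0.096) over the lineage and at -0.35 (-0.45 to -0.25) within bins. Mmp9 (0.26, 0.21 to 0.31, and 0.43, 0.33 to 0.52) and Ly6g (0.34, 0.30 to 0.38, and 0.30, 0.21 to 0.40) were higher in both libraries, but in the spleen-labelled library neutrophil-like clusters alone turned them to -0.027 and -0.094. Within bins of the liver- and the spleen-labelled library, Mmp9 was at 0.26 (0.19 to 0.33) and 0.037 (-0.077 to 0.15). Ly6g was there at 0.20 (0.15 to 0.26) and -0.038 (-0.15 to 0.074). Lcn2 was at 0.058 and 0.13, and at -0.022 (-0.042 to -0.0012) in the latter without cluster 12. That omission, chosen after seeing the data, left Chil3 at 0.40 (0.33 to 0.48), Camp and Ngp at -0.26, Ltf at -0.18, Mmp9 at 0.24 and Ly6g at 0.36. Padi4 (0.28) and Pglyrp1 (0.046) were higher in the liver-labelled library, and their intervals span 0 in the other.

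A cluster of the spleen-labelled library had high Lcn2 with low Camp and Ltf. Cluster 12 held 116 low dose, 2 vehicle and 3 high dose cells, at a median of 4333 UMIs. Lcn2 was at 16414 CPM in these cells, as in the progenitor-like cluster 7 (14587 CPM) in which Camp was at 14969 CPM, while Camp was at 56.2 CPM and Ltf at 77.2. Ngp was at 3036 and Chil3 at 723 CPM in it. Lcn2 exceeded both Camp and Ltf in all lineage clusters but cluster 7 of that library and clusters 12 and 15 of the liver-labelled library. Camp and Ltf were also low beside Lcn2 in cluster 7 of the liver-labelled library (Lcn2 9338, Camp 501 and Ltf 525 CPM) and in its clusters 5 (5561, 81.5 and 117) and 2 (3502, 41.6 and 20.5). The same held for cluster 0 of the spleen-labelled library (4829, 111 and 151). Mmp8 was at 2509.6 CPM in cluster 12 of the spleen-labelled library, and Mmp9 at 988. The other 5 lineage clusters of that library had Mmp8 at 46.8 to 1152 CPM. The leading genes of cluster 12, named here after their values were seen, include Apoa2, Saa1, Saa2 and Hamp, transcripts made in quantity by hepatocytes. The same library held 162 hepatocyte-like cells, whose part in this cluster was not tested. Within bins 6 to 9 of that library, Lcn2 at the low dose was above the vehicle by 0.83, 0.96, 0.90 and 0.89 on the log2 scale, and in bins 1 to 3 below it by -0.70, -0.50 and -0.47. Without cluster 12 the 4 later values were 0.57, 0.050, 0.12 and 0.58, with intervals that span 0 in bins 7 and 8, and those of bins 1 to 3 were the same. With 1 library per label and 1 pool per group, a cluster mostly of 1 group may reflect that pool.

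Between the libraries, vehicle lineage cells of the one labelled spleen had lower summed levels of all 10 genes, though a mean over cells turned the direction of 7 of them, and only Padi4 passed 2-fold (38.2 against 81.4 CPM, log2 ratio -1.09, -1.33 to -0.86). Of all genes tested, 26.4% were at least 2-fold higher and 4.4% at least 2-fold lower in the spleen-labelled library, with a median of 0.34, and the median of the 10 was -0.66. Pglyrp1 (-0.91, -0.95 to -0.88), Ly6g (-0.84) and Ltf (-0.82) followed, and Chil3 differed least (-0.22, -0.28 to -0.15). The 5 primary granule genes were all over 2-fold higher in the spleen-labelled library (Mpo 1038 against 106 CPM, Ctsg 1190.4 against 168). All 5 are also progenitor markers by which clusters entered the lineage, so their levels depend on which clusters were taken in. The 2 lineages differ in makeup. Cluster 9 of the spleen-labelled library, progenitor-like with Camp at 28.8 and Ngp at 187 CPM, held 65 of its vehicle lineage cells. A cluster of 155 cells in the liver-labelled library, with 5 progenitor markers raised, stayed unnamed and outside the lineage. The part of this makeup in the ratios was not tested. The 7 genes that a mean over cells turned to higher in the spleen-labelled library were Chil3 (0.70), Mmp9 (0.30), Camp (0.26), Ngp (0.22), Lcn2 (0.10), Ly6g (0.070) and Ltf (0.067). With neutrophil-like clusters alone no gene was 2-fold lower, against 8.3% of all genes, and Mmp9 (0.71), Mmp8 (0.34) and Ly6g (0.19) were higher in the spleen-labelled library. The lineage rule by S100a8 and S100a9 turned Chil3 (0.11) and Mmp9 (0.071). Library and tissue cannot be told apart here.

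Other granule genes, from a list chosen with earlier results of these data known, gave a few larger ratios. Of the 18 further granule genes, 1 was at least 2-fold higher at the high dose in the liver-labelled library (background 0.754%) and 2 in the spleen-labelled library (1.02%), and none was 2-fold lower. Olfm4, for a protein of a subset of secondary granules, was at 226 CPM in vehicle, 318 in low dose and 636 in high dose cells of the liver-labelled library, a high dose log2 ratio of 1.496 (1.43 to 1.56). It was at 97.0, 176 and 446 CPM in the spleen-labelled library (2.20, 2.04 to 2.36). Mmp25, for a membrane-bound metalloproteinase, was the other gene past 2-fold in the spleen-labelled library (1.18, 0.90 to 1.46) and was at 0.54 (0.39 to 0.68) in the liver-labelled library. Retnlg, for a resistin-like protein of mature neutrophils, was at -0.75 (-0.76 to -0.73) and -0.51 (-0.55 to -0.47), and Cd177, a surface protein of secondary granules, at 0.42 (0.37 to 0.47) and 0.85 (0.76 to 0.94). Retnlg and Cd177 are also neutrophil markers by which clusters entered the lineage. At the low dose, Fpr1 in the spleen-labelled library (1.11, 0.88 to 1.34) was the 1 gene of the 18 past 2-fold, beside the background of 1.02% there, and 0 passed it in the liver-labelled library (0.2%).

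The 5 primary granule genes were higher at the high dose in the liver-labelled library and lower in the spleen-labelled library, with 0 past 2-fold: Mpo, myeloperoxidase, had log2 ratios of 0.88 (0.77 to 0.99) and -0.92 (-1.004 to -0.83), and Elane, neutrophil elastase, of 0.26 (0.20 to 0.32) and -0.33 (-0.39 to -0.28). These 5 genes, and Cebpe below, are also progenitor markers by which clusters entered the lineage. Of 8 regulators of granulocytes, 7 had at least 50 UMIs and 0 passed 2-fold. Cebpe, for C/EBP epsilon, was at 252 CPM in vehicle and 247 in high dose cells of the liver-labelled library, with an interval that spans 0, and at 234 and 297 CPM in the spleen-labelled library (0.34, 0.20 to 0.47). Cebpd, for another C/EBP factor, was at -0.69 (-0.77 to -0.61) and -0.054, the latter with an interval that spans 0.

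Over the 14 lineage clusters of both libraries, the genes whose level (log2 of CPM + 10) was most like that of a member were sought among 7752 genes. Cyfip2 was the most alike to Camp (r = 0.977) and to Ltf (r = 0.978), Ckap4 to Ngp (0.975), Rflnb to Lcn2 (0.979) and Trak2 to Chil3 (0.969). For the later genes they were Actn1 (Ly6g, 0.973), Ceacam10 (Padi4, 0.968), S100a9 (Pglyrp1, 0.984), Asprv1 (Mmp9, 0.989) and Fpr1 (Mmp8, 0.981), the receptor for formylated peptides and 1 of the 18 further granule genes. Clusters of a library share its preparation, so these values are descriptions.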

How the data were processed

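Droplet libraries of hashtag-labelled cells, 1 labelled liver and 1 labelled spleen, were analysed. The authors deposited raw UMI counts per gene and hashtag for filtered barcodes. The matrix headers name Cell Ranger 5.0.0, the submitters' processing notes Cell Ranger 6.0.0, Seurat and mm10, and the study's methods Cell Ranger 8.0, and which release made the counts was not resolved.

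Barcodes with 1 hashtag by HTODemux (quantile 0.99, Seurat 5.3.0, R 4.3.3) were kept, and no further filter on cells was applied. The lowest count was 500 UMIs per barcode, and median depth was 4673 UMIs in the liver-labelled library and 3368.5 in the spleen-labelled library. Barcodes with 2 or more hashtags (616 and 215) were left out as doublets. Scrublet in scanpy 1.11.5 marked 248 and 6 barcodes, the latter too few to rely on, and their removal was only an alternative. Each library was clustered with SCTransform (sctransform 0.4.2), 30 principal components and resolution 0.8, with the 10 genes taken out of the variable features. A cluster was named X-like with at least 3 markers at a log2 fold of 1.0 (10 CPM added) in 20% of its cells and no more markers of another list among its 10 leading genes. Neutrophil and granulocyte progenitor lists counted as one for the lineage. Cluster 15 of the liver-labelled library entered by that rule, and the alternative with neutrophil-like clusters alone keeps it. Names rebuilt in this way can differ from those of the study.

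Counts were summed per group, with exact Poisson intervals for CPM and exact conditional binomial intervals for ratios. Shares have exact Clopper-Pearson intervals. All are at 95%, and the intervals of CPM, ratios of sums and positions were checked on simulated counts. A gene is past the fold at a ratio of 2, among genes with at least 50 UMIs in the 2 groups. The maturation index is the mean of 8 late minus 12 early genes, averaged over 30 nearest neighbours, with bins of at least 5 cells used for matched levels. No p-value was computed, since each group is 1 pooled sample. Genes named are the 10, the lists of 5 primary granule genes, 18 other granule genes and 8 regulators, and for each of the 10 the most alike among genes with at least 200 UMIs, besides cell class markers. The members and lists were chosen with earlier results of these data known. Alternatives were other hashtag calls, cell filters, resolutions, lineage rules, scales, bin numbers and thinning depths, and the closing section gives their effect. Adding unnamed clusters with neutrophil markers to the lineage, and repeating the matched bins under other hashtag calls, filters and bin choices, were alternatives chosen after seeing the data, as was leaving cluster 12 out of the spleen-labelled lineage. Computation used Python 3.11.15, numpy 2.4.6, scipy 1.17.1, pandas 2.3.3, scikit-learn 1.9.0 and matplotlib 3.10.9.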

Additional observations from a re-analysis of the deposited data

Results flagged for a closer look

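The direction of 2 genes against the vehicle differed between the libraries. Camp at the high dose had a log2 ratio of -0.3828 in the liver-labelled library and of 0.1409 in the spleen-labelled library. Ngp at the high dose was at -0.04452 and 0.4286. Camp at the low dose was at 0.02891 in the liver-labelled library and at -0.3812 in the spleen-labelled library. As a mean over cells, Camp (0.59 and 0.39) and Ngp (0.99 and 0.73) at the high dose were higher in both libraries, and Camp at the low dose was at 0.26 and -0.54. In the spleen-labelled library Camp at the high dose was also at -0.27 with the lineage rule by S100a8 and S100a9 and at -0.54 with neutrophil-like clusters alone. Averaged over matched bins, Camp was lower at the high dose in both libraries (-0.61 and -0.039). In the spleen-labelled library, however, it was higher in bins 1 to 3 and lower in bins 4 and 5. Within the progenitor-like cluster 7 of that library Camp was lower at the high dose (13605 against 15180 CPM). With 1 pooled sample per group the difference between the libraries was not tested in any of these cases.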

How the results depend on the processing

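No paired analysis was possible because each group is 1 pooled sample per library, and for the same reason no sample could be left out in turn. Of the values that answer a comparison, 211 moved by less than their counting interval or 1.5 times and 17 moved. With the fold set at 1.5, 1 of the 10 genes (3.85% of all genes tested) was higher at the high dose in the liver-labelled library, 5 (3.86%) in the spleen-labelled library and 1 (1.67%) at the low dose in the liver-labelled library, where 2-fold gave 0, and a mean over cells gave 4 (5.19%) at the high dose in the liver-labelled library. Between libraries, the 1 gene lower in the one labelled spleen became 4 (7.73% of all genes) under a cell filter, 7 (10.8%) on a total without the 20 most abundant genes, 2 (15.8%) after subtraction of the T cell-like level and 8 (12.1%) at 1.5-fold, and 0 at resolution 1.6 (4.53%), with a lineage defined by S100a8 and S100a9 (3.75%), as a mean over cells (7.18%) and with neutrophil-like clusters alone (8.3%). The Mmp9 minus Ltf position in the spleen-labelled library was 26.7 with clusters in place of bins and 24.8 under the cell filter. The r of Camp and Ngp was 0.887 with 1000 UMIs and 0.845 over all 3 groups in the liver-labelled library, and 0.802 over all 3 groups in the spleen-labelled library. The cause of these shifts was not tested.

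Of the values of single genes, 527 stayed within that range and 413 moved. In the spleen-labelled library at the high dose, Mmp8 was at -0.53 under the cell filter. Chil3 stayed above the vehicle under each alternative at the low dose in both libraries (0.67 to 0.93 and 0.24 to 0.73) and at the high dose in the liver-labelled library (0.53 to 1.69). Counts of Padi4 limit its values most.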
